A study of Ambystoma mexicanum with 8 samples.

Results

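The axolotl, a salamander, regrows an amputated limb from a blastema, a mound of undifferentiated cells under a wound epidermis. The measurements described here are the microRNAs (miRNAs) of its regenerating forelimb at 14 days post-amputation (dpa), the last stage sampled, set against the uninjured forelimb at 0 dpa. All 143 of the 143 miRNAs in the small RNA table entered the comparison, and none was selected for how it behaved. The question put to the data was which miRNAs were still away from the uninjured level at this stage. The 14 dpa group was regenerating forelimb tissue after amputation through the mid-zeugopod (the lower arm), and the 0 dpa group was the forelimb tissue taken at amputation. Both came from Ambystoma mexicanum of the Ambystoma Genetic Stock Center, and the labels name no genotype and no agent other than the anaesthetic MS222. They give neither age nor sex, nor how much stump was taken with the regenerate. The 3 and 6 dpa libraries are cited only to place the last stage in the course. Each stage was 1 small RNA library made from pooled tissues, so there was no replicate and no spread between animals, and no difference described here has a replicate check or a p-value.

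A miRNA is a short RNA that pairs with messenger RNAs mainly through its seed, bases 2 to 8, and lowers their translation or stability. miRNAs with the same seed are expected to share targets, and many miRNAs are produced mainly in 1 cell type: miR-1, miR-133 and miR-206 in skeletal muscle, miR-140 in cartilage, miR-203 and miR-200 in epithelia, miR-142 and miR-223 in blood leukocytes. Their levels in a whole limb therefore depend both on how many such cells are present and on how much each cell makes, and a bulk library cannot tell fewer cells of a type from less RNA per cell.

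The mature sequences of miRNAs far from the uninjured level are given first, as annotated by the study, with the seed in capitals and T written for U. Taking miRNAs counted 10 times or more at 14 dpa and at 0 dpa alike, the 10 highest ratios of 14 dpa over 0 dpa were those of miR-21, miR-203b, miR-203a, miR-196d, miR-196a, miR-9, miR-92a, miR-375, miR-25 and miR-181a. miR-363 is shown because it carries the same seed as miR-25 and miR-92a.
miR-21-1-5p: tAGCTTATcagactgatgttgac
miR-203a-3p: gTGAAATGtttaggaccacttg
miR-196d-5p: tAGGTAGTtttatgttgttggg
miR-9-1-5p: tCTTTGGTtatctagctgtatg
miR-181a-1-5p: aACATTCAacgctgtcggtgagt
miR-375-1-3p: tTTGTTCGttcggctcgcgtta
miR-25-3p: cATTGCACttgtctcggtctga
miR-92a-1-3p: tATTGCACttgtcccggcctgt
miR-363-3p: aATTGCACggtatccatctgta

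Under the same limit the 10 lowest ratios included those of miR-133a, miR-499, miR-206, miR-1a, miR-140-3p and miR-1b. miR-1d is shown as a muscle miRNA with the seed of miR-206. miR-206, miR-1a, miR-1b and miR-1d carry 1 seed in common and differ only outside it, whereas miR-133a and miR-499 have seeds of their own.
miR-133a-1-3p: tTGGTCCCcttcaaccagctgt
miR-499-5p: tTAAGACTtgcagtgatgttta
miR-206: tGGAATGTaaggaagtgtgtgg
miR-1a-3p: tGGAATGTaaagaagtatgtac
miR-1b: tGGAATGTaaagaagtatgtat
miR-1d-3p: tGGAATGTtaagaagtatgtat
miR-140-3p: tACCACAGggtagaaccacgga

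Each table value is taken as the read number of a single sequence tag, 20 to 25 bases long. This held for all 68 miRNAs whose tag could be looked up. On that reading a length variant of the same miRNA is either a row of its own or is not counted. Row names below are given without copy numbers and, where no confusion arises, without the arm. In 5 rows the sequence annotation gives another name beside the one in the table: the row miR-142a-5p holds miR-142-3p, miR-126a-5p holds miR-126, miR-199-1-3p holds miR-199c-5p, miR-460-3p holds miR-460a-5p and miR-210-5p holds miR-210-3p.

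The 14 dpa library held 1918841 miRNA reads, against 1297551 at 0 dpa, and the 3 and 6 dpa libraries held 901281 and 1262929. Levels are CPM, reads scaled to a common library total after TMM scaling, a trimmed-mean factor that sets the bulk of the miRNAs equal across the 4 libraries. A ratio is the 14 dpa level over the 0 dpa level on the log2 scale, with a small prior count added to each side, and its 95% interval is the exact Clopper-Pearson one, which covers counting error only. Reads are not independent molecules, since no molecular identifiers are described. A miRNA was called past the cut-off when its log2 ratio was above 0.58 or below -0.58, a 1.49-fold difference.

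At 14 dpa most miRNAs were away from the uninjured level. Of the 143 miRNAs, 50 were higher past the cut-off (35.0%), 56 were lower (39.2%) and 37 lay between. By the stricter reading that the whole counting interval lies past the cut-off, 47 were higher (32.9%) and 46 lower (32.2%), and the whole interval of 19 (13.3%) lay inside it. The median log2 ratio over all miRNAs was -0.05, with quartiles at -1.31 and 1.19. Beyond a 4-fold difference (a log2 ratio of 2) stood 22 miRNAs on the higher side and 22 on the lower side. The split depended on the scaling: 33 higher and 80 lower with total miRNA reads in place of TMM, and 63 higher and 46 lower with the 3 dpa library as TMM reference. These scalings moved the median by -0.80 and 0.38, and upper-quartile scaling moved it by -0.23. Over the 7 scalings tried, 33 miRNAs were called higher and 46 lower under every one, and 0 were called in both directions between scalings. These calls use the log2 ratio alone, and the 46 are not the 46 lower by the counting interval. They include rows whose interval crossed the cut-off, such as miR-328-5p and miR-137. None of the 143 stayed inside the cut-off under all 7, so the miRNAs described as near the uninjured level are near it on the TMM scale. The sign of the log2 ratio turned between scalings for 32 of the 143, of which 5 were past the cut-off on the TMM scale and 27 between. Of the 50 higher miRNAs, 23 had their highest level of the 4 stages at 14 dpa itself, as did 30 of all 143. The highest level fell at 6 dpa for 20 of them and at 3 dpa for 7. Of the 56 lower ones, 33 had their lowest level at 14 dpa, as did 40 of all 143. The lowest level fell at 6 dpa for 21 and at 3 dpa for 2. The call itself excluded 0 dpa as the highest stage of a higher row or the lowest of a lower one.

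**Figure D1:**
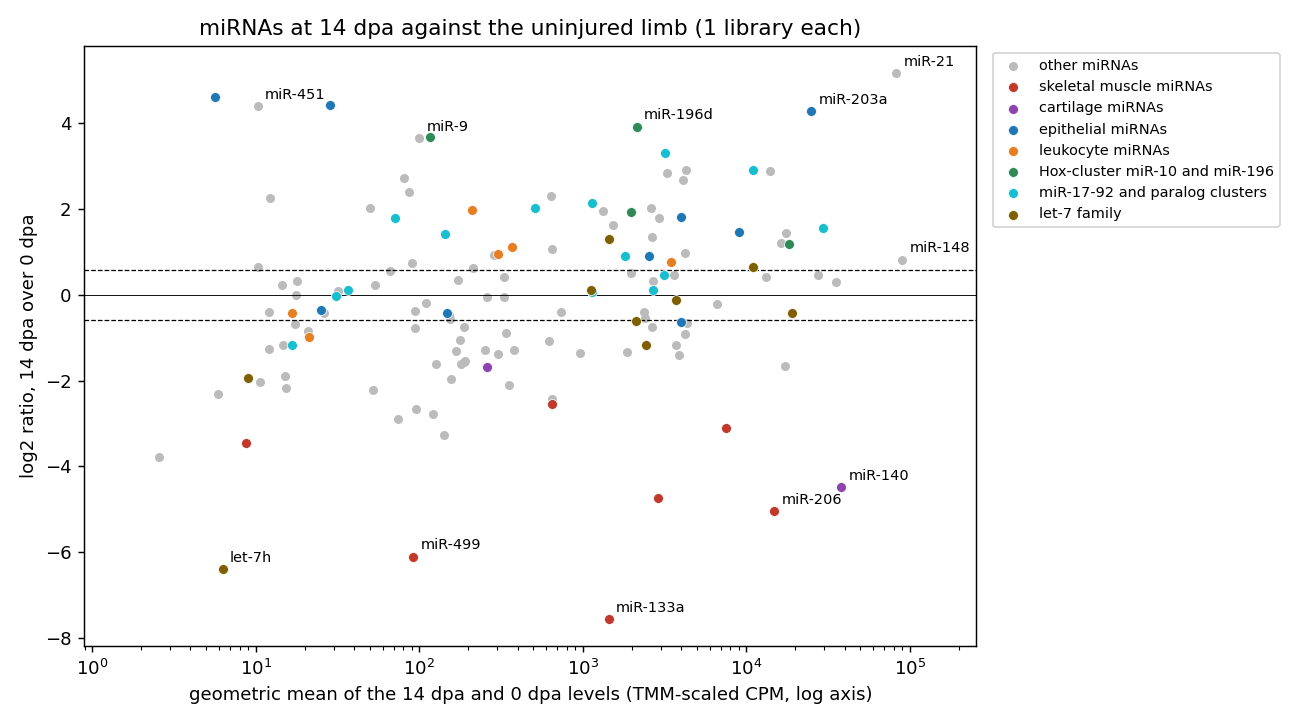
The plot gives each miRNA with reads at 14 dpa as 1 point, with the geometric mean of its 14 dpa and 0 dpa CPM on a log x axis and its log2 ratio (14 dpa over 0 dpa) on the y axis; dashed lines mark the cut-off and colours mark 7 of the lists. miR-21 (5.17) is the highest point and miR-133a (-7.56) the lowest, and the muscle points all lie below -2.5.

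The make-up of the 2 libraries was different at the top. miR-21, a miRNA known to be induced after injury in many tissues, took 39.7% of the reads at 14 dpa, against 1.92% at 0 dpa. The lead at 0 dpa belonged to the cartilage miRNA miR-140-3p, which took 0.646% of the reads at 14 dpa, against 25.1% at 0 dpa. The second place at 0 dpa was held by the muscle miRNA miR-206, with 0.207% of the reads at 14 dpa, against 11.9% at 0 dpa. The 5 most abundant miRNAs made up 65.2% of the reads at 14 dpa (miR-21, miR-148, miR-203a, miR-93 and miR-30e), against 55.0% at 0 dpa (miR-140-3p, miR-206, miR-148, miR-30e and miR-130c). miR-148 and miR-30e were in both. miR-148 stood at 119437 CPM at 14 dpa, against 67513 CPM at 0 dpa (log2 ratio 0.82, counting interval 0.81 to 0.83, but 0.024 with total miRNA reads). Its share of the reads was 9.54% at 14 dpa, against 9.38% at 0 dpa. miR-30e stood at 39314 CPM at 14 dpa, against 31819 CPM at 0 dpa (log2 ratio 0.31, counting interval 0.29 to 0.32, but -0.49 with total miRNA reads).

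**Figure D2:**
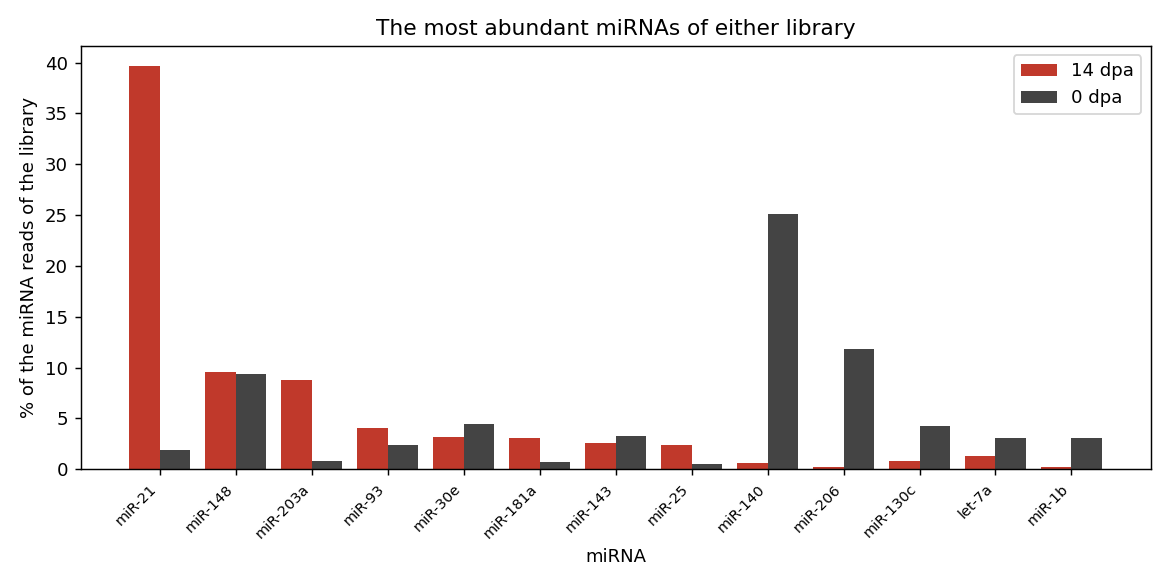
Bars give the percent of each library's miRNA reads taken by the 8 most abundant miRNAs of either library, 14 dpa on the left of each pair and 0 dpa on the right. miR-21 holds 39.7% at 14 dpa against 1.92% at 0 dpa, and miR-140-3p 0.646% against 25.1%.

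The uninjured library carried the miRNAs of skeletal muscle and cartilage that a limb is known for, and at 14 dpa most of that signal was absent. The 7 skeletal muscle miRNAs were 0.486% of the reads at 14 dpa, against 20.1% at 0 dpa. All 7 were lower past the cut-off, as were 39.2% of all miRNAs. The 7 were lower under every scaling tried, and on the TMM scale their whole intervals lay below it (median log2 ratio -4.74, against -0.05 over all miRNAs). miR-133a had 161 reads at 14 dpa, against 35701 reads at 0 dpa, and 105 CPM at 14 dpa, against 19797 CPM at 0 dpa (log2 ratio -7.56, counting interval -7.79 to -7.33). That is 188-fold lower, the lowest log2 ratio of any miRNA counted 10 times or more in each of the libraries. miR-206, which is made from activated muscle precursors onwards, had 2590.3 CPM at 14 dpa, against 85331 CPM at 0 dpa (log2 ratio -5.04, counting interval -5.09 to -5.0). Its relative miR-1a, the heart and skeletal muscle miRNA, had 557 CPM at 14 dpa, against 14847 CPM at 0 dpa (log2 ratio -4.74, counting interval -4.84 to -4.64). miR-499, which is encoded within a myosin heavy chain gene in mammals, had 11.1 CPM at 14 dpa, against 766 CPM at 0 dpa (log2 ratio -6.10, counting interval -6.89 to -5.43). miR-208b, also from a myosin gene in mammals, had only 4 reads at 14 dpa, against 53 reads at 0 dpa (log2 ratio -3.46, counting interval -5.42 to -2.05).

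The muscle miRNAs had not all left the uninjured level at the same stage. miR-133a stood at 19797, 1729, 587 and 105 CPM at 0, 3, 6 and 14 dpa, and miR-206 at 85331, 11974, 8915 and 2590.3 CPM at 0, 3, 6 and 14 dpa: both were already well below the uninjured level at 3 dpa. miR-1b stood at 21954, 18412, 17239 and 2547 CPM at 0, 3, 6 and 14 dpa, and miR-1d at 1572, 1726, 1135 and 270.1 CPM at 0, 3, 6 and 14 dpa. For these rows most of the distance from the uninjured level appeared only at 14 dpa. At 14 dpa every one of the 7 was at its lowest level of the 4 stages. The 4 rows that carry the miR-1/206 seed, summed, had 9142 reads at 14 dpa, against 223086 at 0 dpa (log2 ratio -4.37, counting interval -4.40 to -4.34).

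Of the cartilage pair, miR-140-3p stood at 180636, 53031, 14052 and 8091 CPM at 0, 3, 6 and 14 dpa, 22.3-fold lower at 14 dpa than at 0 dpa (log2 ratio -4.48, counting interval -4.51 to -4.45). miR-455, which is produced in chondrocytes with miR-140, had 145 CPM at 14 dpa, against 464 CPM at 0 dpa (log2 ratio -1.68, counting interval -1.90 to -1.46), and it ran 464, 155, 170.1 and 145 CPM at 0, 3, 6 and 14 dpa, with little difference after 3 dpa. Together the pair took 0.658% of the reads at 14 dpa, against 25.2% at 0 dpa. Of the mesenchymal miRNAs miR-199 and miR-214, miR-199 had 3086 CPM at 14 dpa, against 5799 CPM at 0 dpa (log2 ratio -0.91, counting interval -0.96 to -0.86). In zebrafish several miR-199 copies share this tag, so the row is not read as the product of a single locus. miR-214 had 188 CPM at 14 dpa, against 493 CPM at 0 dpa (log2 ratio -1.39, counting interval -1.59 to -1.20). Both rows were lower past the cut-off, as were 39.2% of all miRNAs, the miR-199 one not under every scaling. Both stood above their own 6 dpa level: miR-199 ran 5799, 2480.4, 1201 and 3086 CPM at 0, 3, 6 and 14 dpa, and miR-214 ran 493, 64.3, 66.7 and 188 CPM at 0, 3, 6 and 14 dpa.

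Most but not all epithelial miRNAs were on the higher side. Of 9 epithelial rows 6 were higher past the cut-off, 1 lower and 2 between (median log2 ratio 1.45), where 35.0% of all miRNAs were higher and 39.2% lower, and 5 of the 6 were higher under every scaling. The list took 11.2% of the reads at 14 dpa, against 2.82% at 0 dpa. miR-203a, which drives keratinocytes out of the cell cycle in mammals, carried most of it, with 110572 CPM at 14 dpa, against 5650 CPM at 0 dpa (log2 ratio 4.29, counting interval 4.26 to 4.32), 19.6-fold higher. miR-203b, a tag that lacks the first 2 bases of miR-203a, had 202 reads at 14 dpa, against 11 reads at 0 dpa (log2 ratio 4.42, counting interval 3.56 to 5.46). miR-203c had 44 reads at 14 dpa, against 2 reads at 0 dpa (log2 ratio 4.60, counting interval 2.76 to 7.78). With 2 reads at 0 dpa the miR-203c ratio is bounded only within that interval. Its tag differs from that of miR-203a in 1 base of the seed. Whether the miR-203b and miR-203c rows hold miRNAs of their own or variants of miR-203a was not tested. The row counts and the median of this list may therefore count 1 miRNA more than once. Within the miR-200 family, which maintains the epithelial state, miR-200a had 7481 CPM at 14 dpa, against 2136 CPM at 0 dpa (log2 ratio 1.81, counting interval 1.76 to 1.86). miR-200c had 14886 CPM at 14 dpa, against 5429.8 CPM at 0 dpa (log2 ratio 1.45, counting interval 1.42 to 1.49). With the seed of miR-200c, miR-429a had 3495 CPM at 14 dpa, against 1869.8 CPM at 0 dpa (log2 ratio 0.90, counting interval 0.84 to 0.96). The row miR-200b did not pass the cut-off (log2 ratio -0.42, counting interval -0.69 to -0.16). Its tag has the seed ATCTTAC, not the AATACTG of miR-200c and miR-429a, and starts like the 5p arm of zebrafish miR-200b. The row is therefore not a measure of a miR-200b tag with the seed of miR-200c. The skin miRNA miR-205 was on the other side. Its row miR-205-5p had 3210.2 CPM at 14 dpa, against 4972 CPM at 0 dpa (log2 ratio -0.63, counting interval -0.68 to -0.58), a call kept under some scalings only. The row miR-205a-3p had 34 reads at 14 dpa, against 51 reads at 0 dpa (log2 ratio -0.35, counting interval -1.02 to 0.30), with a sign that depended on the scaling. The ratios of miR-203a and miR-205-5p differed by 4.92 on the log2 scale, and this difference does not depend on the scaling.

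All 4 miRNAs of the sensory and neuroendocrine list were higher (median log2 ratio 2.76), as were 35.0% of all miRNAs. Of the 4, 3 were higher under every scaling. miR-375, known from pancreatic islets and also from epithelia, had 11807 CPM at 14 dpa, against 1559 CPM at 0 dpa (log2 ratio 2.92, counting interval 2.86 to 2.98). miR-182, miR-183 and miR-96 are made from 1 transcript in sensory cells of other vertebrates. miR-182 had 10408 CPM at 14 dpa, against 1616 CPM at 0 dpa (log2 ratio 2.69, counting interval 2.63 to 2.74). miR-183 had 8713 CPM at 14 dpa, against 1223 CPM at 0 dpa (log2 ratio 2.83, counting interval 2.77 to 2.90). miR-96 had 397 CPM at 14 dpa, against 210.2 CPM at 0 dpa (log2 ratio 0.92, counting interval 0.73 to 1.11). The 3 miRNAs of this cluster thus stood at unequal distances from the uninjured level, with miR-96 the nearest to it.

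**Figure D3:**
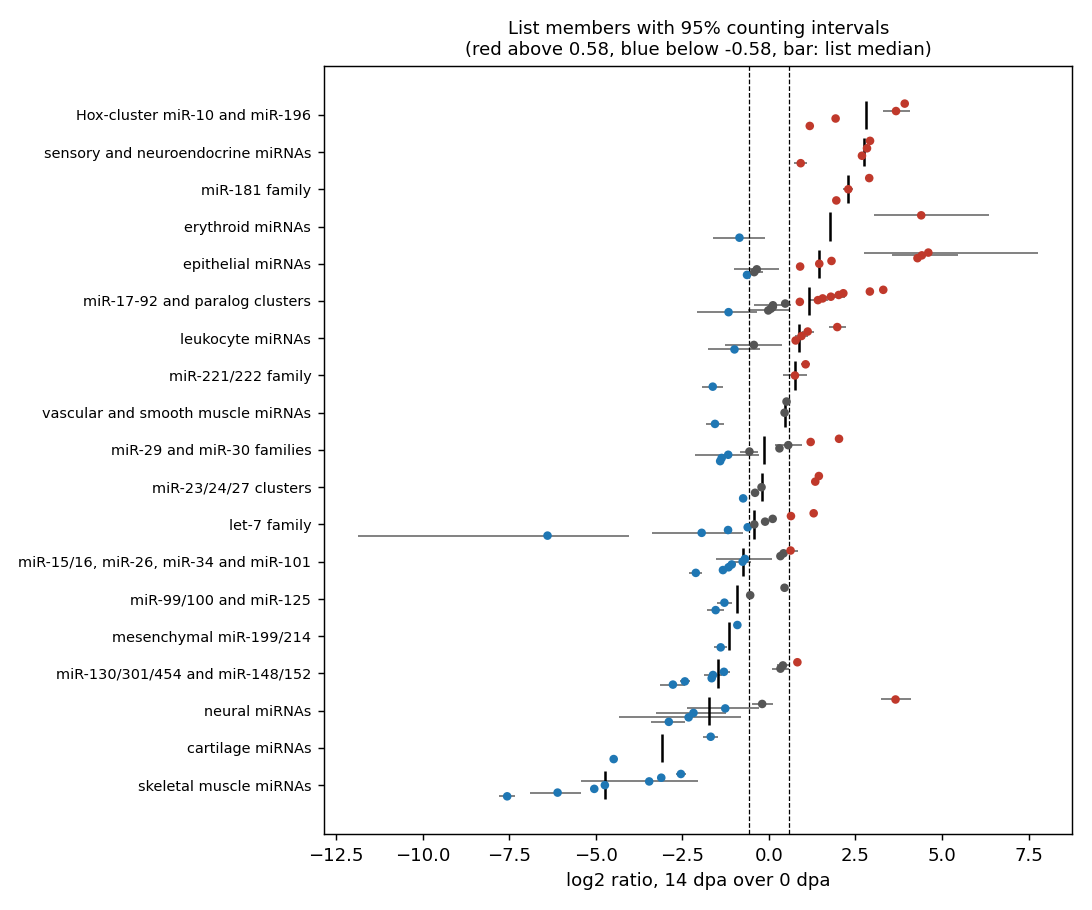
The plot gives the log2 ratio of 14 dpa over 0 dpa for the members of each list (points), with 95% counting intervals as lines, list medians as black bars and dashed lines at the cut-off. The Hox-cluster list has the highest median (2.80) and the skeletal muscle list the lowest (-4.74). With nested tags added up, which is not drawn, the Hox-cluster median was 1.96, below that of the sensory and neuroendocrine list (2.79).

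The Hox-cluster miRNAs miR-10 and miR-196 lie among the Hox genes that pattern the limb and repress some of them. All 4 rows were higher (median log2 ratio 2.80), as were 35.0% of all miRNAs. Of the 4, 3 were higher under every scaling. miR-196d stood at 549, 707, 1114 and 8323 CPM at 0, 3, 6 and 14 dpa (log2 ratio 3.92, counting interval 3.83 to 4.02). miR-196a, a tag 2 bases shorter, stood at 32.7, 78.9, 104 and 418 CPM at 0, 3, 6 and 14 dpa (log2 ratio 3.67, counting interval 3.29 to 4.08). For both, most of the distance from the uninjured level appeared between 6 and 14 dpa. As nested tags these rows may be 1 miRNA, counted more than once among the 4 rows. With nested tags added up the list median was 1.96. miR-10b ran 12196, 10895, 12889.9 and 27648 CPM at 0, 3, 6 and 14 dpa (log2 ratio 1.18, counting interval 1.16 to 1.20), with the first 3 stages close together. miR-10a ran 1011, 1222, 3546 and 3844 CPM at 0, 3, 6 and 14 dpa (log2 ratio 1.93, counting interval 1.85 to 2.0) and was already high at 6 dpa. miR-9, a miRNA of neural progenitors, had 548 reads at 14 dpa, against 51 reads at 0 dpa, and its course was 28.3, 24.9, 47.0 and 358 CPM at 0, 3, 6 and 14 dpa (log2 ratio 3.66, counting interval 3.24 to 4.10). Like the miR-196 rows it was set apart mainly at the last stage, and it was the 1 neural row of 6 that was higher.

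The other neural rows were at low levels in both libraries. Of these rows 4 were lower past the cut-off and 1 between (list median -1.72), where 39.2% of all miRNAs were lower. miR-128, abundant in neurons, had 42 reads at 14 dpa, against 367 reads at 0 dpa (log2 ratio -2.89, counting interval -3.39 to -2.43). miR-132, induced by neuronal activity in mammals, had 11 reads at 14 dpa, against 59 reads at 0 dpa (log2 ratio -2.18, counting interval -3.27 to -1.25). The neuron marker miR-124 had 4 reads at 14 dpa, against 24 reads at 0 dpa (log2 ratio -2.32, counting interval -4.34 to -0.81), few in either library. miR-137 had 12 reads at 14 dpa, against 34 reads at 0 dpa (log2 ratio -1.26, counting interval -2.35 to -0.28), and its interval crossed the cut-off. miR-138 had 104 CPM at 14 dpa, against 119 CPM at 0 dpa (log2 ratio -0.19, counting interval -0.50 to 0.11) and was the row between, with a sign that depended on the scaling.

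The miR-17-92 cluster and its paralogs, which promote proliferation in mammalian cells, had 8 of 14 rows higher, 1 lower and 5 between (median log2 ratio 1.15), where 35.0% of all miRNAs were higher and 39.2% lower. Of the 8 rows, 7 were higher under every scaling. The list took 8.36% of the reads at 14 dpa, against 4.30% at 0 dpa. Its highest ratios were those of miR-92a and miR-25, which carry the shared seed printed above. miR-92a ran 1009, 1297, 3564 and 9957 CPM at 0, 3, 6 and 14 dpa (log2 ratio 3.30, counting interval 3.23 to 3.37). miR-25 ran 4008, 2830.2, 17743 and 30250.1 CPM at 0, 3, 6 and 14 dpa (log2 ratio 2.92, counting interval 2.88 to 2.95). miR-363 had 1035 CPM at 14 dpa, against 256 CPM at 0 dpa (log2 ratio 2.02, counting interval 1.87 to 2.17). Summed over this seed the reads were 63209 at 14 dpa, against 9509 at 0 dpa (log2 ratio 2.97, counting interval 2.94 to 3.00). The rows with the miR-17 seed spread more widely. miR-20a had 2404 CPM at 14 dpa, against 542 CPM at 0 dpa (log2 ratio 2.15, counting interval 2.05 to 2.25). miR-93, among the 5 most abundant miRNAs at 14 dpa, had 50409 CPM at 14 dpa, against 17183 CPM at 0 dpa (log2 ratio 1.55, counting interval 1.53 to 1.57). At the near end, miR-17a had 1171 CPM at 14 dpa, against 1127 CPM at 0 dpa (log2 ratio 0.06, counting interval -0.04 to 0.15), with a sign that depended on the scaling, as did that of miR-106b. miR-106a and miR-106b had only 17 and 47 reads at 14 dpa, with log2 ratios of -1.16 and -0.02. In background terms, miR-17a and miR-92a come from 1 primary transcript in other vertebrates, as do miR-93 and miR-25. In each case the ratios of the mature tags differed. Apart from its first base, the tag of the row miR-106b lies whole within that of miR-17a. Its ratio is therefore not read as that of a further product of the miR-93 and miR-25 transcript.

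The miR-181 family is known for roles in lymphocyte and muscle differentiation. All 3 rows were higher (median log2 ratio 2.29), as were 35.0% of all miRNAs, and the 3 were higher under every scaling. miR-181a ran 5155, 2605, 16584 and 38406 CPM at 0, 3, 6 and 14 dpa (log2 ratio 2.90, counting interval 2.87 to 2.93) and so was below the uninjured level at 3 dpa and highest at 14 dpa. miR-181b had 2611 CPM at 14 dpa, against 677 CPM at 0 dpa (log2 ratio 1.95, counting interval 1.85 to 2.04). miR-181c had 1411 CPM at 14 dpa, against 288 CPM at 0 dpa (log2 ratio 2.29, counting interval 2.15 to 2.43). The row miR-181c holds the tag of miR-181b with 3 more bases at its 3′ end, so the 3 rows may count 1 miRNA more than once.

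miR-21 itself stood at 13831, 431344, 511557 and 496581 CPM at 0, 3, 6 and 14 dpa: it had reached its high level by 3 dpa, and at 14 dpa it was 35.9-fold above the uninjured limb (log2 ratio 5.17, counting interval 5.15 to 5.18). miR-31, known from epithelial wound repair, had 207 CPM at 14 dpa, against 31.6 CPM at 0 dpa (log2 ratio 2.71, counting interval 2.30 to 3.15). miR-31 and miR-21, miR-7b (2.40) and the rows miR-181b and miR-181c were higher, and miR-133a, miR-204 (-3.27), miR-338 (-2.21), miR-2184 (-2.04) and miR-24 (-0.74) were lower in a list of 10 that the authors drew from comparisons of 2 fish with the axolotl. That list rests partly on this same 0 dpa library and is no independent evidence of direction (median log2 ratio 0.60, but -0.20 with total miRNA reads). Its rows miR-181b and miR-181c are nested tags. In the authors' quantitative PCR, at 6 dpa for the axolotl, miR-31, miR-21 and miR-181c were named as raised in axolotl and fish alike. The same PCR named miR-24, miR-338 and miR-2184 as lowered in the axolotl. By that PCR miR-181b and miR-7b were named as raised in the fish only. The authors' discussion reports miR-181b and miR-7 as significantly lower in regenerating axolotl forelimbs. Likewise the PCR named miR-204 as lowered in the 2 fish only, zebrafish and bichir, and miR-133a in the bichir only. At 14 dpa the miR-24 call from the reads was lost under some scalings.

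**Figure D4:**
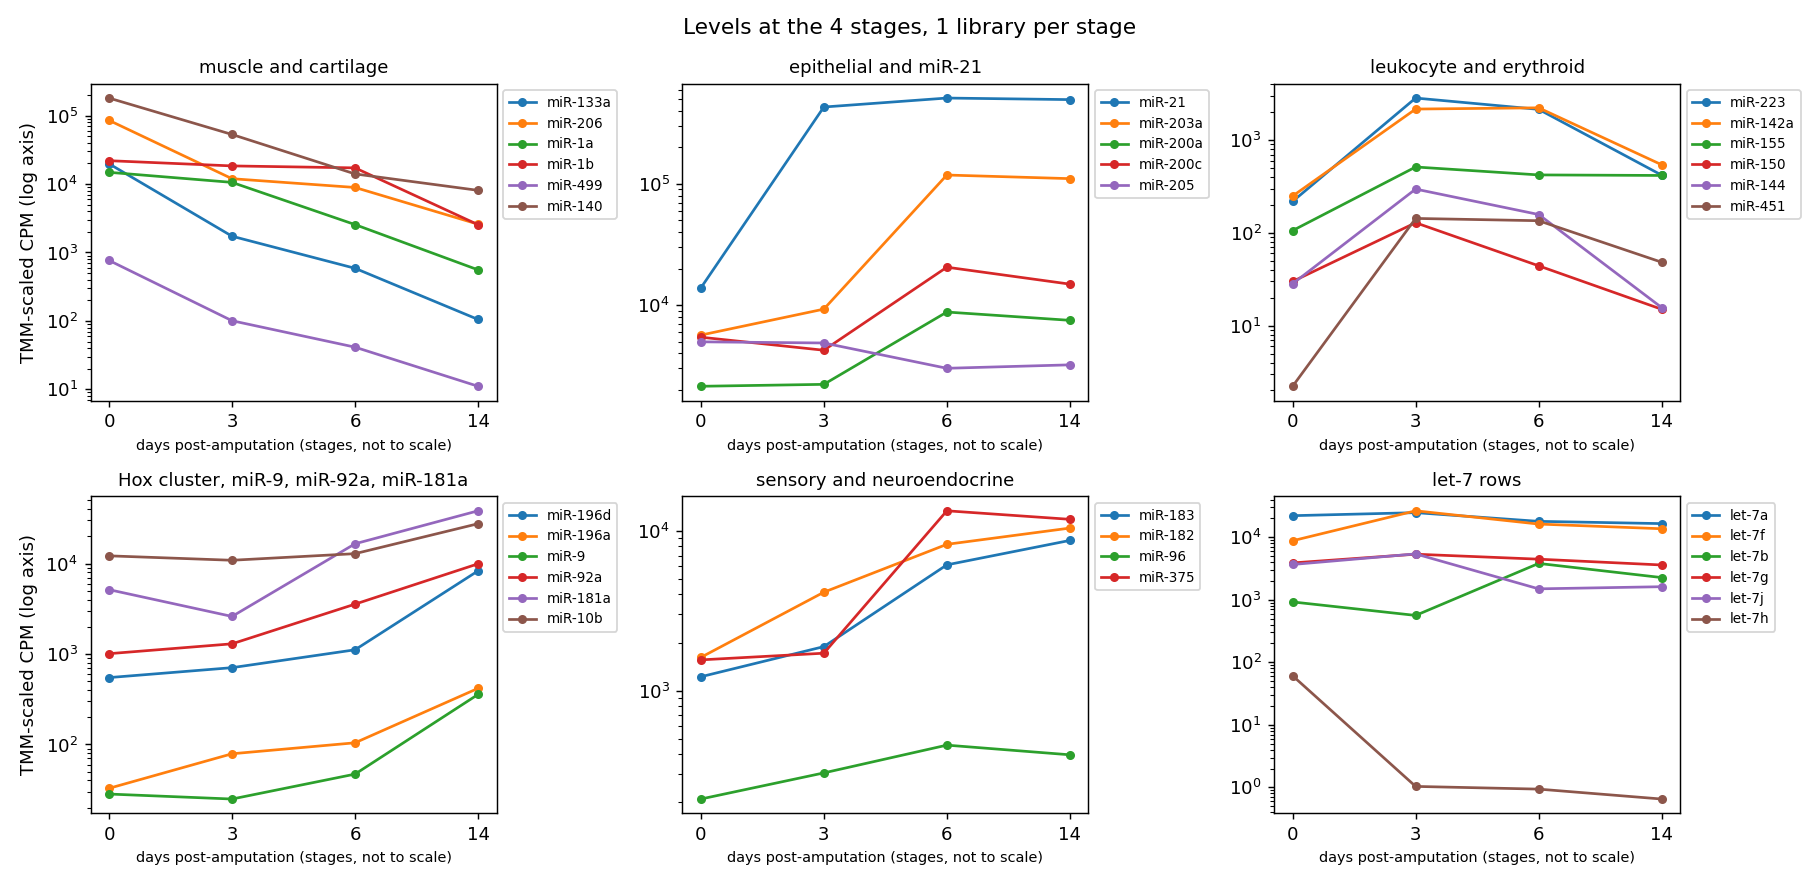
The panels give TMM-scaled CPM on a log axis at 0, 3, 6 and 14 dpa for selected rows, 1 library per stage, with stages equally spaced. Muscle rows are lowest at 14 dpa, miR-196d (8323 CPM) and miR-9 (358 CPM) are highest there, and miR-223 and miR-142a peak at 3 to 6 dpa.

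Several blood-cell miRNAs were past an early peak at 14 dpa. miR-223, the neutrophil and monocyte miRNA, ran 218, 2846, 2149 and 419.5 CPM at 0, 3, 6 and 14 dpa, and miR-142a, of all leukocytes, ran 249.5, 2165, 2233 and 543 CPM at 0, 3, 6 and 14 dpa. At 14 dpa they were still above the uninjured level past the cut-off, but not under every scaling. For miR-223 the values were log2 ratio 0.94, counting interval 0.76 to 1.13. For miR-142a they were log2 ratio 1.12, counting interval 0.95 to 1.29. miR-155, induced in activated immune cells, was still close to its 6 dpa level and ran 106, 514, 422 and 416 CPM at 0, 3, 6 and 14 dpa (log2 ratio 1.97, counting interval 1.74 to 2.22). miR-146a, which dampens inflammatory signalling, had 4563 CPM at 14 dpa, against 2671 CPM at 0 dpa (log2 ratio 0.77, counting interval 0.72 to 0.83), a direction that turned with total miRNA reads (-0.026). miR-150, of mature lymphocytes, ran 29.9, 129, 44.2 and 15.0 CPM at 0, 3, 6 and 14 dpa (log2 ratio -0.99, counting interval -1.77 to -0.27). Over the 6 leukocyte rows 4 were higher, 1 lower and 1 between (median log2 ratio 0.86), where 35.0% of all miRNAs were higher and 39.2% lower. The erythroid pair split by the log2 ratio on the TMM scale. miR-451 had 74 reads at 14 dpa, against 4 reads at 0 dpa (log2 ratio 4.40, counting interval 3.03 to 6.36), whereas miR-144 ran 28.3, 297, 158 and 15.7 CPM at 0, 3, 6 and 14 dpa (log2 ratio -0.85, counting interval -1.62 to -0.13). The miR-144 interval crossed the cut-off, and its call was lost with the 3 dpa library as TMM reference. In other vertebrates the pair comes from 1 transcript. A course of the same shape was seen in miR-191, chosen after its values were seen, which ran 336, 993, 1126 and 326 CPM at 0, 3, 6 and 14 dpa (log2 ratio -0.04, counting interval -0.22 to 0.13) and so was back near the uninjured level on the TMM scale.

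Of the 22 seeds shared by 2 or more rows, 5 had all members higher, 2 had all members lower and 6 had members past the cut-off in both directions on the TMM scale, where 35.0% of all miRNAs were higher and 39.2% lower. With total miRNA reads, the seeds of let-7, miR-148, miR-221, miR-34 and miR-30 among the 6 had no member higher. The 1 lower row of the remaining miR-17 seed was miR-106a, with 17 reads at 14 dpa and an interval (-2.07 to -0.34) that crossed the cut-off. Some of the 22 seeds were shared only by the tags of a nested pair. The let-7 seed, of the miRNAs that accompany differentiation in animals, was 1 of the 6. Its 8 rows with the let-7 seed summed to 62049 reads at 14 dpa, against 77681 at 0 dpa (log2 ratio -0.09, counting interval -0.10 to -0.07), near the uninjured level on the TMM scale. The sum was at -0.89 with total miRNA reads and 0.29 with the 3 dpa library as TMM reference. Over the 9 rows of the list, which includes let-7i-3p (-1.94), 2 were higher, 4 lower and 3 between (median -0.42). let-7b had 2261 CPM at 14 dpa, against 923 CPM at 0 dpa (log2 ratio 1.29, counting interval 1.21 to 1.38). let-7j had 1616 CPM at 14 dpa, against 3659.8 CPM at 0 dpa (log2 ratio -1.18, counting interval -1.25 to -1.11). let-7f, whose direction turned with total miRNA reads (-0.16), had 13640 CPM at 14 dpa, against 8769.7 CPM at 0 dpa (log2 ratio 0.64, counting interval 0.61 to 0.67). let-7a, the most abundant of them, had 16482 CPM at 14 dpa, against 22067 CPM at 0 dpa (log2 ratio -0.42, counting interval -0.44 to -0.40). let-7h had 1 read at 14 dpa, against 110 reads at 0 dpa (log2 ratio -6.39, counting interval -11.86 to -4.04), and it was at 1 read at 3 and 6 dpa too.

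The 4 rows with the seed of miR-15 and miR-16, which restrain the cell cycle in mammals, were all lower, the miR-15a call not under every scaling, and so was their sum (log2 ratio -1.33, counting interval -1.39 to -1.27). In the list that joins them with miR-26, miR-34 and miR-101, 1 of 9 rows was higher, 6 lower and 2 between (median -0.76). Among all miRNAs 35.0% were higher and 39.2% lower. By the whole counting interval on the TMM scale 4 rows of the list were lower and 0 higher. By the log2 ratio alone, 4 rows were lower under every scaling and 0 were higher under every one. The seed shared by miR-130, miR-301 and miR-454 had 4 of 5 rows lower (log2 ratio -1.65, counting interval -1.68 to -1.63 for their sum). With miR-130b-5p, miR-148 and miR-152 the list had 1 row higher, 5 lower and 2 between (median -1.46). miR-130c, at 9756 CPM at 14 dpa, against 30643 CPM at 0 dpa (log2 ratio -1.65, counting interval -1.68 to -1.63), carried the reads of that seed. On the TMM scale the seed of miR-148 and miR-152 split into its abundant and its rare member. miR-148 was higher as given above, a call lost with total miRNA reads. miR-152 ran 317, 0, 0.940 and 46.3 CPM at 0, 3, 6 and 14 dpa (log2 ratio -2.77, counting interval -3.15 to -2.42), so that it was at 0 and 1 reads at 3 and 6 dpa and present again at 14 dpa. miR-146b showed a like course beside the more abundant miR-146a, with 19.4, 0, 0.940 and 14.4 CPM at 0, 3, 6 and 14 dpa.

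The miR-30 family had its abundant members higher or near (miR-30d 1.21, miR-30e 0.31, with the turn of sign given above) and its less abundant ones lower (miR-30b -1.36, miR-30c -1.41). The miR-30d call was lost with total miRNA reads. With the miR-29 rows and miR-30a-3p (2.03), 2 of 8 rows were higher, 3 lower and 3 between (median -0.13, but 0.25 with the 3 dpa library as TMM reference). Among all miRNAs 35.0% were higher and 39.2% lower, and the list counts given here are to be read beside these shares. The vascular list had 0 rows higher, 1 lower and 2 between (median 0.45, but -0.35 with total miRNA reads). miR-143, of smooth muscle, had 32056 CPM at 14 dpa, against 23416 CPM at 0 dpa (log2 ratio 0.45, counting interval 0.43 to 0.47), and its sign turned with total miRNA reads (-0.35). miR-145, encoded beside it in vertebrates, had 110.3 CPM at 14 dpa, against 324 CPM at 0 dpa (log2 ratio -1.56, counting interval -1.81 to -1.31). The endothelial miR-126 had 2361 CPM at 14 dpa, against 1659 CPM at 0 dpa (log2 ratio 0.51, counting interval 0.44 to 0.58), and its sign turned likewise (-0.29). Of the miR-99, miR-100 and miR-125 rows 2 were lower and 2 between (median -0.91). miR-100 had 4230 CPM at 14 dpa, against 3093 CPM at 0 dpa (log2 ratio 0.45, counting interval 0.40 to 0.50), but was at -0.35 with total miRNA reads. miR-99, with the same seed, had 112 CPM at 14 dpa, against 324 CPM at 0 dpa (log2 ratio -1.54, counting interval -1.79 to -1.29). miR-125a (-1.28) was lower and miR-125b (-0.54) was between. Of the miR-23, miR-24 and miR-27 rows (median -0.21, but 0.17 with the 3 dpa library as TMM reference), miR-27a-5p (1.44) and miR-27d (1.34) were higher, miR-24 lower, and miR-23a (-0.40) and miR-27b (-0.21) between. By the limit of 10 reads in each of the 2 libraries, miR-204 and miR-139 were also in the 10 lowest ratios. miR-204, known from the eye, had 45.7 CPM at 14 dpa, against 441 CPM at 0 dpa (log2 ratio -3.27, counting interval -3.64 to -2.92). miR-139 had 37.8 CPM at 14 dpa, against 239.6 CPM at 0 dpa (log2 ratio -2.66, counting interval -3.08 to -2.26).

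Taking only miRNAs counted 1000 times or more in each of the libraries, those closest to the uninjured level on the TMM scale were miR-17a (log2 ratio 0.06, counting interval -0.04 to 0.15), let-7e (log2 ratio 0.11, counting interval 0.02 to 0.20), miR-19d (log2 ratio 0.11, counting interval 0.05 to 0.17), let-7g (log2 ratio -0.11, counting interval -0.16 to -0.06) and miR-27b (log2 ratio -0.21, counting interval -0.25 to -0.17). The sign of all 5 depended on the scaling. Being near at 14 dpa was not the same as having stayed near: let-7e ran 1077, 2103, 2444 and 1163 CPM at 0, 3, 6 and 14 dpa, with its middle stages higher. miR-27b ran 7092, 2858, 4309 and 6122 CPM at 0, 3, 6 and 14 dpa, with its middle stages lower.

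At the other end, 2 rows had 0 reads at 14 dpa, where 3 reads is the floor. miR-194a, an intestine and liver miRNA in mammals, had 37 reads at 0 dpa. Its counting interval for the log2 ratio, which takes in the counting error of both libraries, ended at -3.02, past the cut-off. With those 37 reads taken as exact, the floor makes it at least 10.5-fold lower at 14 dpa. miR-328-5p had 6 reads at 0 dpa, and its interval ended at -0.00094, inside the cut-off. It counts as lower by the log2 ratio alone, and a difference past the cut-off was not resolved at this depth. No row had 0 reads at 0 dpa. The median log2 ratio over all miRNAs was the same, -0.05, with both rows set to the floor.

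The shares of shorter and longer tags also differed between the libraries. Some rows hold the sequence of another row with 1 to 3 bases missing at the 3′ end. The ratio of such a pair within a library does not depend on the scaling. There were 8 such pairs. The 4 with the largest shift, chosen after their values were seen, are shown with the bases that only the longer tag has in capitals.
miR-26b-5p: ttcaagtaatccaggatagg
miR-26a-1-5p: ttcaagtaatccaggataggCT
miR-27d-3p: ttcacagtggctaagttctg
miR-27b-3p: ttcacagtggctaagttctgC
miR-222b-3p: agctacatctggctactggg
miR-222a-3p: agctacatctggctactgggTCT
miR-454a-3p: tagtgcaatattgcttatagg
miR-454b-3p: tagtgcaatattgcttataggGT

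In these 4 pairs the shorter tag took a larger share of the pair at 14 dpa. Of the reads of its pair, miR-26b made up 55.1% at 14 dpa (95% interval 54.0 to 56.2%), against 30.3% at 0 dpa (29.5 to 31.0%). The share of miR-27d was 40.7% at 14 dpa (95% interval 40.0 to 41.5%), against 19.0% at 0 dpa (18.4 to 19.6%). For miR-222b it was 61.7% at 14 dpa (95% interval 55.9 to 67.3%), against 23.7% at 0 dpa (20.1 to 27.6%). For miR-454a it was 65.3% at 14 dpa (95% interval 60.7 to 69.6%), against 32.7% at 0 dpa (29.6 to 36.0%). In none of the 4 did the interval at 14 dpa overlap that at 0 dpa, and the rows of a pair accordingly had different ratios. miR-222b was higher (0.75, but -0.046 with total miRNA reads) and miR-222a lower (-1.62), beside miR-221 at 1.06, with the summed pair at log2 ratio -0.63, counting interval -0.84 to -0.42. miR-26a was lower (-1.17) and miR-26b was not (0.33, but -0.47 with total miRNA reads), with the summed pair at log2 ratio -0.53, counting interval -0.57 to -0.49. The summed miR-27b and miR-27d pair was at log2 ratio 0.24, counting interval 0.21 to 0.27, but at -0.56 with total miRNA reads. The summed miR-454 pair was at log2 ratio -0.66, counting interval -0.83 to -0.50. None of the other 4 pairs had a larger share of the shorter tag at 14 dpa beyond counting error, and in 2 of them it was smaller beyond it. In the miR-218 pair the intervals overlapped, with miR-218b at 53.6% at 14 dpa (95% interval 47.0 to 60.1%), against 46.6% at 0 dpa (41.7 to 51.6%). miR-196a made up 4.78% at 14 dpa (95% interval 4.42 to 5.15%), against 5.62% at 0 dpa (4.31 to 7.20%) of its pair with miR-196d, again with overlap. The share of miR-19c in its pair with miR-19b was 1.53% at 14 dpa (95% interval 1.17 to 1.97%), against 2.59% at 0 dpa (2.0 to 3.30%), smaller at 14 dpa with no overlap. The share of miR-181b in its pair with miR-181c was also smaller with no overlap, 64.9% at 14 dpa (95% interval 63.7 to 66.1%), against 70.2% at 0 dpa (68.0 to 72.3%). A shorter tag may come from the longer miRNA or from a paralog with the same first bases. In zebrafish the miR-26b tag shown above lies within both miR-26a and miR-26b, and the miR-19c tag within both miR-19b and miR-19c. For miR-26 and miR-19 the sources cannot be told apart here. The miR-222b tag lies within zebrafish miR-222a but not miR-222b, and the miR-454a tag within miR-454b but not miR-454a. Likewise the miR-196a tag lies within miR-196d but not miR-196a. The miR-181c tag starts like zebrafish miR-181b, not miR-181c. The rows of these pairs may thus be length forms of 1 miRNA under 2 names. In the axolotl itself the source was not tested for any pair.

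**Figure D5:**
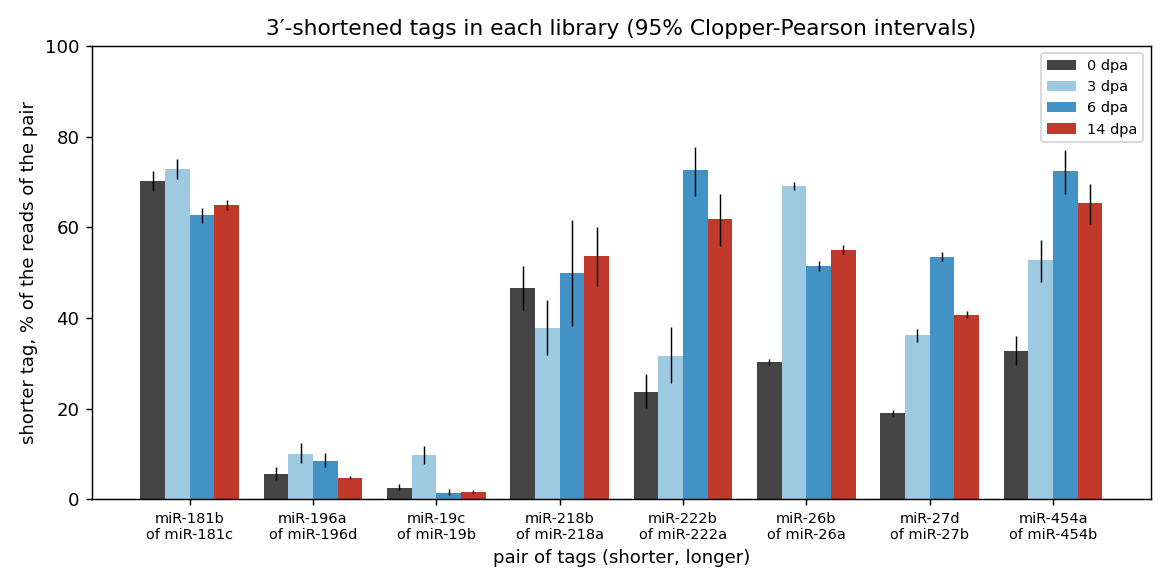
Bars give the share of the shorter tag in the reads of each pair that differs only at the 3′ end, at 0, 3, 6 and 14 dpa, with 95% Clopper-Pearson intervals as error bars. In the miR-222, miR-26, miR-27 and miR-454 pairs the 14 dpa bar is higher than the 0 dpa bar, and in the miR-181 pair it is lower.

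Over all miRNAs, the ratio at 14 dpa had little relation to the base make-up of the tag. Across the 141 miRNAs with reads at 14 dpa the log2 ratio had a Pearson r of 0.00 and a Spearman rho of -0.01 with the GC share of the tag, and a Pearson r of -0.03 with its length; the rows are not independent replicates. By length, the median log2 ratio was 0.45 over the 15 tags of 20 bases and -0.47 over the 77 tags of 22 bases. It was -0.20 at 21, 0.06 at 23 and 0.56 at 24 bases, and the 1 tag of 25 bases was at 0.10. The medians thus did not run steadily with length.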

How the data were processed

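Small RNA libraries (Illumina TruSeq, Genome Analyzer IIx) were made from pooled axolotl forelimb tissue, 1 library per stage. Per the study's methods, the authors clipped adapters, collapsed reads into tags, annotated tags of 20 to 25 bases with miRMiner against miRBase and analysed them with edgeR. The deposited values are log2 read numbers, although the table is named as log CPM: raised as powers of 2 they are whole numbers within a relative deviation of 3.46e-09. The 7 error marks in the table were read as 0 reads. For 68 miRNAs whose tag is also in the study's tag table, the reads equalled those of that 1 tag in all 68.

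TMM factors (trims of 30% and 5%, 0 dpa as reference), log2 ratios and exact Clopper-Pearson intervals at 95% were computed in Python 3.11.15 with NumPy 2.4.6 and SciPy 1.17.1, and tested on simulated data. Rows named in the text were the 10 largest rises and falls with at least 10 reads in both libraries, the 5 most abundant of each library, the 5 nearest the uninjured level with at least 1000 reads, rows at 0 reads, nested tags and members of the lists. miRNAs and lists were chosen with earlier results of these data known. Alternatives were other scalings, another scaling reference, abundant miRNAs left out of the scaling, other prior counts, a read filter, a cut-off of 1 and nested tags summed. The mRNA table was not used here.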

Additional observations from a re-analysis of the deposited data

How the results depend on the processing

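With total miRNA reads in place of TMM, 33 miRNAs were higher, 31 were higher and 72 were lower by the counting interval, and the median log2 ratio was -0.85. The median was -0.28 with upper-quartile scaling, 0.33 with the 3 dpa library as TMM reference and -0.24 with nested tags added up. With a cut-off of 1, 43 miRNAs lay near the uninjured level. Between scalings 32 of the 143 log2 ratios changed sign, 23 of them with total reads, as did 5 of the 20 list medians. Of values past the cut-off, those named in the text that changed sign with total reads were let-7f (-0.16), miR-146a (-0.026), miR-222b (-0.046), miR-34a (-0.17), the median of miR-221 and miR-222 (-0.046) and the median of the 3-species list (-0.20). With nested tags added up, miR-222b was at -0.60 and the 3-species median at -0.71. With at least 10 reads in every library the erythroid median was -0.85, since miR-451 drops out. Prior counts of 0.5 and 1 changed none of the counts.

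Each stage was a single library of pooled tissue, so differences between animals, dissections and library preparations cannot be told apart from the stage. Leaving out a replicate was not possible. No paired analysis was possible because the groups compared share only 1 replicate number. Counting intervals widen below about 10 reads, as for let-7h, miR-203c and miR-208b.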
